A study of Homo sapiens with 17 samples.

Results

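The genes described here are the proteasome genes of BJ fibroblasts, taken as every feature of the deposited expression table whose symbol begins with PSMA to PSMG followed by a digit. The rule found 47 of the 9699 features. By role they were 7 genes of the 20S alpha ring, 7 of the 20S beta ring, 3 immunoproteasome subunits, 6 genes of the 19S ATPase ring, 11 non-ATPase 19S subunits, 5 activators and inhibitors (PSME1 to PSME4 and PSMF1) and 7 assembly factors (PSMD5, PSMD9, PSMD10 and PSMG1 to PSMG4). The remaining gene, PSMC3IP, is not a subunit: it encodes a cofactor of meiotic recombination and was caught by its symbol. It is kept in the counts over all 47 genes, and is among those lower in RNA, Ribo-Seq and TE in quiescence and senescence and in Ribo-Seq and TE in pre-senescence.

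The proteasome degrades proteins tagged with ubiquitin. Its 20S core is a barrel of stacked rings, in which the outer alpha rings gate the channel and the inner beta rings carry the proteolytic sites. The 19S cap binds the ubiquitin chain, removes it and threads the substrate into the core with a ring of ATPases. In cells exposed to interferon, PSMB8, PSMB9 and PSMB10 take the places of the catalytic subunits PSMB5, PSMB6 and PSMB7 in newly built cores, and PSME1 with PSME2 forms the PA28 activator, and both changes are known for supplying peptides to MHC class I.

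BJ cells are human foreskin fibroblasts, here immortalized with hTERT. RNA-Seq measured transcript levels and Ribo-Seq, the sequencing of ribosome-protected fragments, measured ribosome occupancy. Cells were proliferating (3 RNA and 3 Ribo-Seq libraries), quiescent after removal of serum (2 and 2), pre-senescent 5 days after the addition of 4-OHT (tamoxifen) to switch on an inducible RAS G12V oncogene (2 and 1), senescent 14 days after it (1 and 1), or transformed (1 and 1). The transformed cells carried hTERT, a knockdown of p16INK4A and of a further gene, SV40 small T antigen and a constitutive RAS G12V from a pBabe-puro vector, so they differ from the other states in several alleles at once, and nothing in the labels says whether they came from 1 clone. The table holds 6 RNA and 6 Ribo-Seq columns, 1 for each state except proliferation, which has 2. The first proliferating column (run 1) combines 2 libraries and belongs, by the study's methods, to the sequencing run of the quiescent and pre-senescent cells, and the second (run 2) to the run of the senescent and transformed cells. Each state was compared with the proliferating column of its own run, so quiescence and pre-senescence share a control, as do senescence and transformation. Within a state no replicate values are given, so no test was possible, no p-value is given, and values carry no error.

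Values are FPKM, read fragments scaled to transcript length (coding length for Ribo-Seq) and to sequencing depth. Levels and TE of different genes are set side by side as a description. Each gene stands as 1 isoform, and unique alignments alone were counted. Where cells use another isoform, or reads map more than once, FPKM and TE of a gene can be shifted, which was not tested. The authors raised every value below 1 to 1. Translation efficiency (TE) is log2 Ribo-Seq FPKM minus log2 RNA-Seq FPKM. Differences between states are on the log2 scale, and a gene was counted as higher or lower where it differed at least 1.5-fold, which is 0.585 in log2. How many reads lie behind a value cannot be worked out from the table. The FPKM of a column summed to between 375110 and 416123 in RNA-Seq and between 647320 and 780289 in Ribo-Seq, and 2.56% to 5.73% of the features of a column were at 1. In bulk cultures, fewer cells that express a gene and less RNA per cell cannot be told apart.

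The 2 Ribo-Seq libraries titled as senescence and as the third proliferating sample carry each other's condition in another label. They were used by title, which matches the column names. The cell-cycle gene MKI67 was at 1.00 in the Ribo-Seq column named senescence and at 43.0 in the proliferating column of run 2, and the cell-cycle inhibitor CDKN1A was at 548 and 223. The senescence Ribo-Seq column correlated with the senescence RNA column at r = 0.897 and with the other RNA columns at 0.725 to 0.780 (Pearson, log2 FPKM, across 9699 features, which are not independent). With the pair exchanged, every Ribo-Seq difference between senescence and proliferation changes its sign, including those of genes for which no exchanged value is printed, and the transformed cells get another control, with which 15 of the 47 genes pass 1.5-fold in Ribo-Seq and 14 in TE. The share of all features was not computed for the exchange. The fibroblast genes VIM and COL1A2 were at 2956 or more and 219 or more in every RNA column, and COL1A1, FN1 and THY1 at 51.57 or more. Other fibroblast genes fell lower, COL3A1 to 12.7 and LUM to 5.38 in pre-senescence and PDGFRB to 4.49 in senescence. Of the listed immune genes in the data, the monocyte gene CD14 was at 1.00 to 1.67 in RNA, but CD68 was at 38.3 to 132. The epithelial gene KRT19 was at 1.00 to 4.43 except in the proliferating column of run 2, where it was at 39.8. CDKN2A, which encodes the p16INK4A targeted by knockdown in the transformed cells, was at 12.6 there against 6.75 in the proliferating column of run 2 in RNA, and at 5.51 against 8.92 in Ribo-Seq. Its RNA was thus not lower in the transformed column, but the gene also encodes ARF, from which p16INK4A transcripts were not separated here.

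The 2 proliferating columns give a measure of how far values differ without a change of state. Of the 47 genes, 1 was higher in run 2 than in run 1 in RNA, against 12% of all features, and 11 were lower, against 14.1%. In Ribo-Seq 2 were higher, against 21.0%, and 10 lower, against 20.3%. In TE none was higher, against 16.0% of all features, and 4 were lower, against 11.9%. The median difference of the proteasome genes was -0.22 in RNA, -0.30 in Ribo-Seq and 0.01 in TE. The 19S ATPase ring differed most between the runs, with medians of -0.56 in RNA and -0.58 in Ribo-Seq, whereas the 3 immunoproteasome genes were higher in run 2 in RNA, by 0.13 to 0.47, and in Ribo-Seq PSMB8 was 0.57 and PSMB9 0.67 higher while PSMB10 was at -0.29.

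Core and cap transcripts were abundant, while the 47 genes together spanned a 52.6-fold range in RNA, from PSMB9 at 5.80 FPKM upward. In the proliferating column of run 1 the median of the 14 core subunits was 127 FPKM in RNA and that of the 17 cap subunits 76.0, against 13.6 for all features. PSMA7 was the highest core transcript at 305 and PSMA2 the lowest at 63.8. In the cap, the scaffold PSMD2 was highest at 260, and PSMD12 and PSMD7 were lowest at 26.3 and 26.5. The constitutive core subunits thus spanned a 4.78-fold range in RNA and the cap subunits a 9.89-fold range.

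Ribosome footprints were more even than transcripts across the cap. In Ribo-Seq the cap subunits of the same column spanned 3.51-fold, from PSMD1 at 103 to PSMC3 at 362. The SD of log2 levels across the 17 cap subunits was 0.98 in RNA and 0.52 in Ribo-Seq in the proliferating column of run 1. It was 0.96 and 0.53 in quiescence, 0.96 and 0.51 in pre-senescence, 0.89 and 0.42 in the proliferating column of run 2, 1.10 and 0.45 in senescence, and 0.94 and 0.41 in transformed cells. In each of the 6 columns, then, the Ribo-Seq spread of the cap was smaller than the RNA spread. In the core the SDs were nearer to each other, 0.60 and 0.52 in the proliferating column of run 1, and in pre-senescence the order was turned, with 0.59 in RNA and 0.65 in Ribo-Seq.

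TE differed widely between the genes. PSMD7, a lid subunit that pairs with the deubiquitinase PSMD14, had 26.5, 22.5 and 27.6 FPKM in RNA in the proliferating, quiescent and pre-senescent columns of run 1, and 18.9, 16.0 and 23.2 in the proliferating, senescent and transformed columns of run 2. Its Ribo-Seq values in the same order were 209, 141, 180, 141, 110 and 184. Its TE lay between 2.65 and 2.99, the highest of the 47 genes in all 6 columns. At the other end, PSME4, which encodes the PA200 activator, had 30.8, 25.1, 36.2, 26.6, 38.8 and 27.6 FPKM in RNA and 15.4, 13.8, 24.99, 16.1, 34.8 and 20.2 in Ribo-Seq. Its TE was below 0 in every column, from -1.01 to -0.16. It was the lowest of the 47 genes in all columns but pre-senescence, where PSMG2 stood just below it (-0.54 for both), and senescence, where PSMB10, PSMC5, PSMB8 and PSMG4 were lower.

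**Figure D1:**
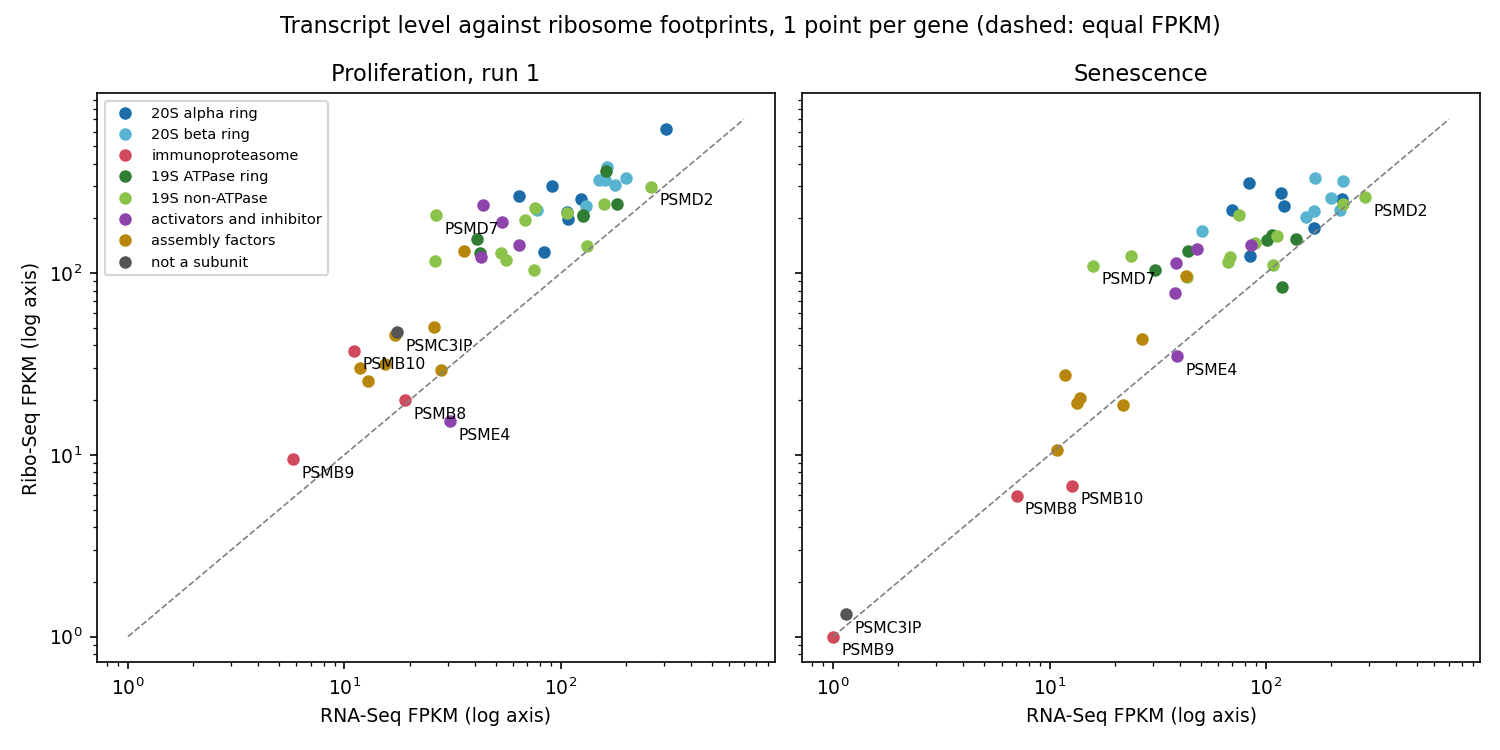
RNA-Seq FPKM (x, log axis) against Ribo-Seq FPKM (y, log axis) of the 47 genes, 1 point per gene coloured by role, in the proliferating column of run 1 and in senescence. Cap subunits spread less on the Ribo-Seq axis (SD 0.52 in log2) than on the RNA axis (SD 0.98) in proliferation, PSMD7 stands highest above the line of equal FPKM, and PSMB8, PSMB9, PSMB10 and PSMC3IP lie lower on the Ribo-Seq axis in senescence.

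In quiescence none of its 14 genes reached 1.5-fold in RNA, and their median difference was -0.16. Of all 47 proteasome genes, 4 were higher in RNA, against 10.7% of all features, and 2 were lower, against 8.73%. In Ribo-Seq all 14 core genes lay below the proliferating column, with a median of -0.43, and 3 passed 1.5-fold, PSMA2 at -0.94, PSMA7 at -0.74 and PSMA6 at -0.70. Among all 9699 features, 5132 lay below it, and their median was -0.05. Among the 47 genes 2 were higher in Ribo-Seq, against 18.7% of all features, and 18 lower, against 22.1%. TE was likewise below the control in all 14 core genes, with a median of -0.29 against -0.05 for all features, but past 1.5-fold in PSMA2 alone (-0.73). None of the 47 was higher in TE, against 11.5% of all features, and 3 were lower, against 13.8%. The direction of these small RNA differences depends on the control: against the proliferating column of run 2 the median of the 47 genes in quiescence was 0.11 in place of -0.21.

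In pre-senescence the core transcripts were all slightly above proliferation, from 0.08 for PSMA7 to 0.52 for PSMB7, which forms the trypsin-like site. The same direction held for 5140 of all 9699 features. None of the 47 genes passed 1.5-fold in RNA in either direction, against 5.65% of all features higher and 6.64% lower. Footprints went the other way. PSMA2 was at 266 FPKM in proliferating and 156 in pre-senescent cells in Ribo-Seq while its RNA was 63.8 and 79.8, and PSMB2 was at 221 and 107 while its RNA was 77.5 and 85.9. The alpha ring had a Ribo-Seq median of -0.59, with PSMA1, PSMA2, PSMA6 and PSMA7 past 1.5-fold, and the beta ring one of -0.21, with PSMB2 alone past it, at -1.05. Over all 47 genes 1 was higher, against 15.9% of all features, and 10 lower, against 22.8%.

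The TE of the core was therefore lower in all 14 genes of pre-senescent cells. The alpha ring had a median TE difference of -0.86, and 6 of its 7 genes passed 1.5-fold, from PSMA3 at -0.59 to PSMA2 at -1.10, the exception being PSMA5 at -0.44. In the beta ring the median was -0.52 and PSMB2 passed, at -1.20. None of the 47 genes was higher in TE, against 14.2% of all features, and 17 were lower, against 22.5%, and each of the 17 differences was larger than the same gene's difference between the 2 proliferating columns. All features together had a median of -0.13, and the 75 cytosolic ribosomal proteins, whose messenger RNAs are a textbook case of translational control, one of -0.63. Against the proliferating column of run 2 the Ribo-Seq median of the 47 genes was 0.07, not -0.28, and 18 of them passed 1.5-fold in RNA, whereas the TE median stayed below 0, at -0.42.

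In senescence the core stood higher in RNA. PSMB5, which forms the chymotrypsin-like site, was at 119 FPKM in proliferation and 200 in senescence, PSMB6, the caspase-like site, at 90.8 and 153, and PSMB7 at 148 and 228. These were differences of 0.75, 0.76 and 0.62, and PSMA6 also passed 1.5-fold, at 0.62. The beta ring had a median of 0.56 and the alpha ring one of 0.33. Against the proliferating column of run 1, with its higher core levels, PSMB5, PSMB6 and PSMB7 were 0.42, 0.24 and 0.51 higher, so that none of the 3 passed 1.5-fold, and the median of the 47 genes was 0.00. Of the 47, 6 were higher in RNA, against 18.5% of all features, and 5 lower, against 22.4%.

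Footprints of the senescent core were close to those of proliferating cells. PSMB5 was at 228 and 257 FPKM in Ribo-Seq, PSMB6 at 190 and 204, and PSMB7 at 252 and 319, and none of the 14 core genes passed 1.5-fold. Of all 47 genes 2 were higher in Ribo-Seq, against 20.7% of all features, and 7 lower, against 29.0%. In TE 13 of the 14 core genes lay below proliferation, PSMB2 being the exception at 0.19, and 3 passed 1.5-fold, PSMA7 at -0.85, PSMB4 at -0.74 and PSMB6 at -0.66. Among all 9699 features, 5023 lay below proliferation in TE. None of the 47 was higher in TE, against 13.8% of all features, and 12 were lower, against 17.6%. One of the 12 is PSMB9, which stood at the floor in both assays in senescence and has no defined TE there, so that 11 remained without it.

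In transformed cells core RNA lay above the proliferating column of run 2 in 13 of 14 genes. The same direction held for 5627 of all 9699 features. PSMB3 passed 1.5-fold at 0.76 (113 and 191 FPKM) and PSMA3 at 0.65 (60.5 and 95.0), and the core median was 0.34. These calls depend on the control: in the proliferating column of run 1 PSMB3 was at 177 and PSMA3 at 91.05, close to the transformed values, and PSMB5 and PSMB6 in transformed cells were -0.05 and -0.10 from it. Of all 47 genes 7 were higher in RNA, against 13.1% of all features, and none was lower, against 11.5%. Core footprints had a median difference of 0.03 and none passed 1.5-fold, with PSMA5 lowest at -0.55. The proteasome genes higher in Ribo-Seq numbered 4, against 13.5% of all features, and none was lower, against 15.6%. TE was below proliferation in 13 of the 14 core genes, with a median of -0.37, whereas the 17 cap subunits had one of -0.08. For all features the median was -0.07, with 5534 of 9699 below proliferation, so the cap was near all features. No gene was higher in TE, against 5.17% of all features, and 1 was lower, PSMB9, against 10.6%.

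**Figure D2:**
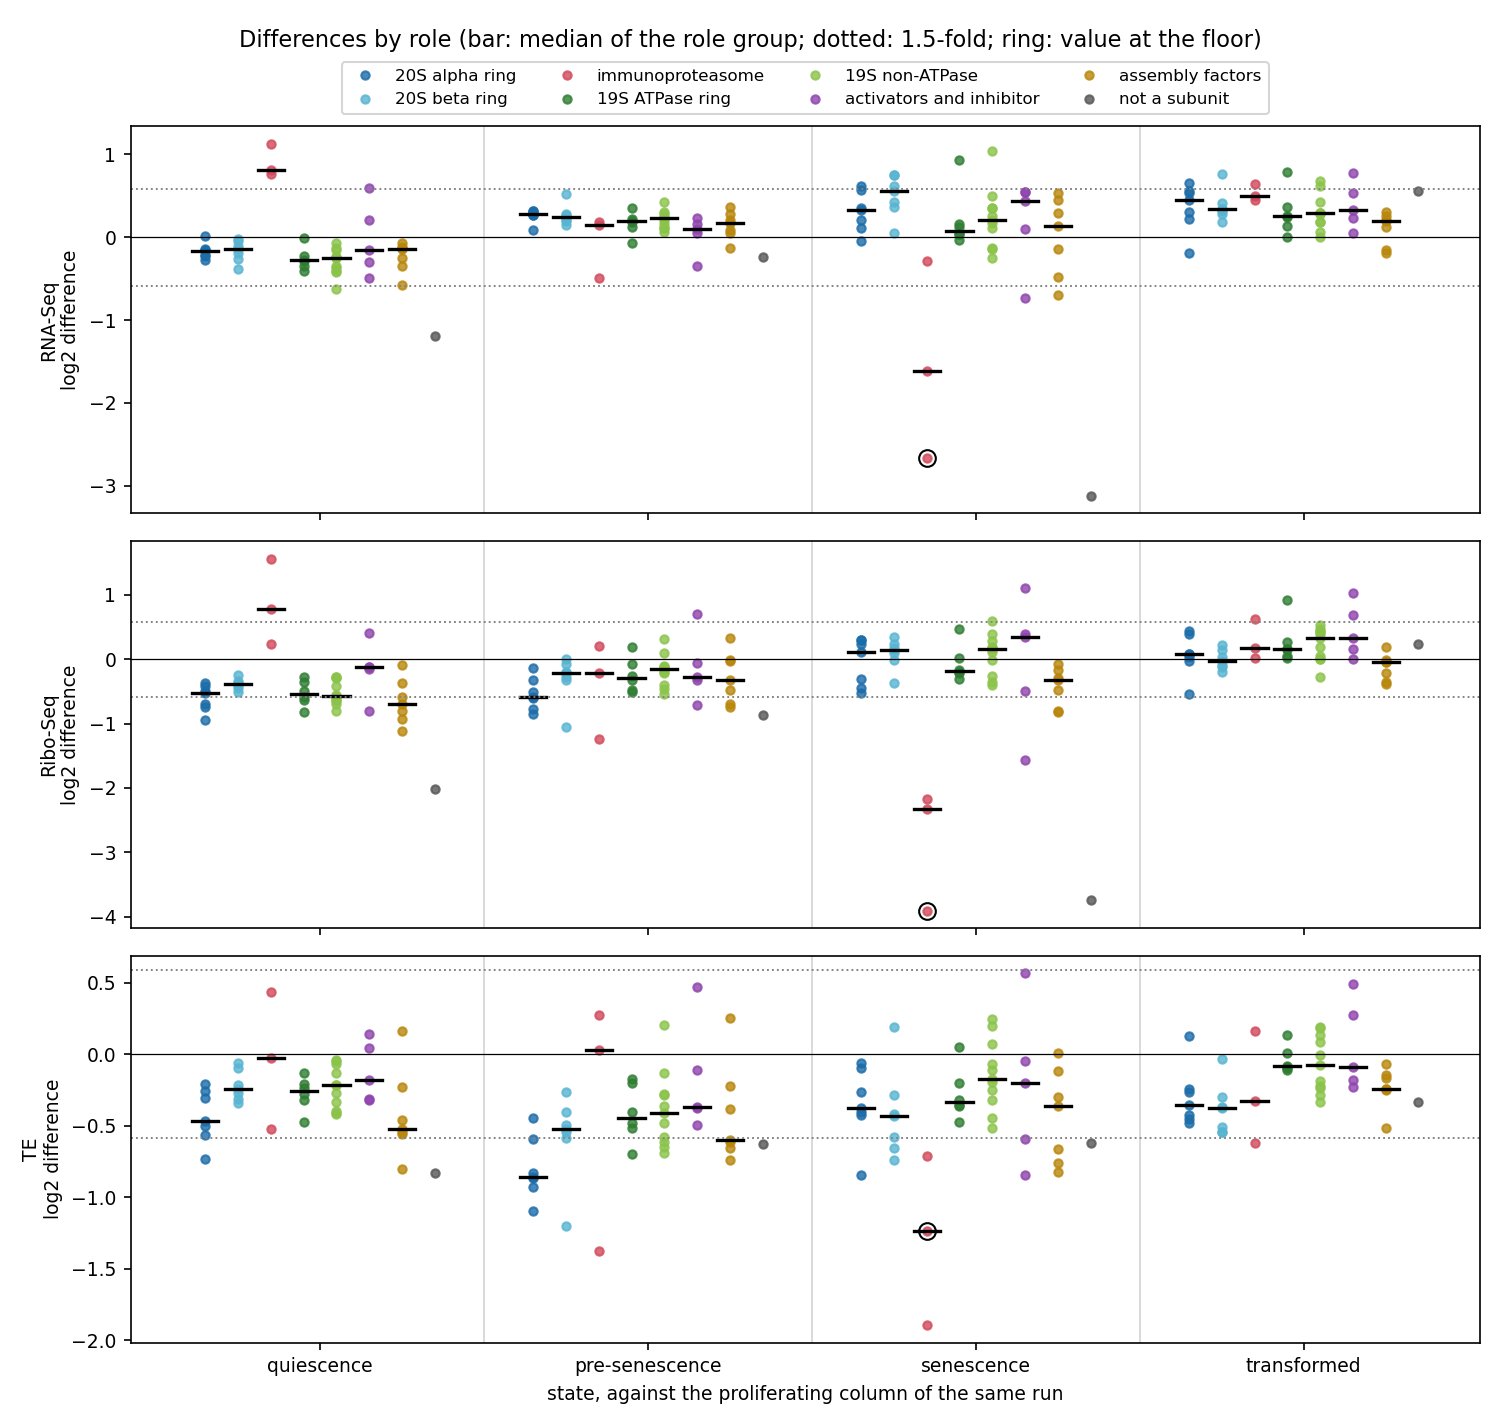
Log2 difference of each of the 47 genes from the proliferating column of the same run (y), by state (x) and role (colour), in RNA-Seq, Ribo-Seq and TE. Bars are medians of role groups, dotted lines mark 1.5-fold and rings mark PSMB9 at the floor of 1. The 3 immunoproteasome genes lie above the other genes in quiescence in RNA (0.76 to 1.13) and below every core gene in senescence in RNA and Ribo-Seq, and the alpha ring has the lowest median TE of the core and cap groups in pre-senescence (-0.86).

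The 19S cap followed the core in RNA with a few genes of its own. In quiescence all 17 cap genes were below proliferation in both assays, with medians of -0.27 in RNA and -0.57 in Ribo-Seq. Among all 9699 features, 4825 were below it in RNA and 5132 in Ribo-Seq. PSMD2, a large scaffold of the base, was the cap gene past 1.5-fold in both, at 260 and 168 FPKM in RNA and 298 and 184 in Ribo-Seq. In the proliferating column of run 2 it was at 204 and 232, nearer to the quiescent values, and neither difference from it reached 1.5-fold. In Ribo-Seq 8 of the 17 passed, against 22.1% of all features lower, PSMC1 with -0.82 and PSMD12 with -0.80 the lowest. Of these 8, 6 also differed by more than the same gene did between the proliferating columns. No cap gene passed 1.5-fold in TE in quiescence.

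In pre-senescence 16 of the 17 cap genes were above proliferation in RNA and 14 below it in Ribo-Seq, without any past 1.5-fold in either. Among all 9699 features, 5140 were above proliferation in RNA and 5384 below it in Ribo-Seq. In TE 4 of 17 passed, a share near the 22.5% of all features, PSMC6 at -0.70, PSMD8 at -0.69, PSMD11 at -0.65 and PSMD4, a ubiquitin receptor, at -0.61. PSMD1, the other large scaffold of the base, was the exception to the lower TE of the cap at 0.20.

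In senescence PSMD8, a lid subunit, had the highest RNA difference of all 47 genes, 1.04. It was at 110 FPKM in proliferation, 226 in senescence and 115 in transformed cells in RNA, and at 160, 240.5 and 132 in Ribo-Seq, a Ribo-Seq difference of 0.59 in senescence. The ATPase PSMC4 was at 71.6, 137 and 92.5 in RNA (0.94 in senescence) and at 111, 153 and 134 in Ribo-Seq (0.46). Against the higher run 1 level of proliferating cells, 158 for PSMD8 and 126 for PSMC4, these RNA values were nearer to the control. In Ribo-Seq the run 1 level of PSMD8 was 239, close to its senescent value, and that of PSMC4 was 208, above its senescent value. The other 15 cap genes lay between -0.24 (PSMD7) and 0.49 (PSMD2) in RNA, and no cap gene passed 1.5-fold in TE, with a median of -0.20.

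In transformed cells PSMC5, another ATPase of the base, was the cap gene past 1.5-fold in both assays, with 109 and 190 FPKM in RNA (0.79) and 96.6 and 183 in Ribo-Seq (0.92). Its run 1 proliferating values were 182 and 239, and its difference between the proliferating columns in Ribo-Seq, -1.31, was larger than its difference in transformed cells. PSMD3 at 0.68 and PSMD12 at 0.62 also passed in RNA. In the proliferating column of run 1 they were at 132 and 26.3. Their transformed values, 150 and 33.6, were less than 1.5-fold from these.

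Genes of the core and cap are known targets of NFE2L1, a transcription factor that is kept low by the proteasome itself and is released when capacity falls short, after removal of its sugars by NGLY1 and cleavage by DDI2. NFE2L1 was at 81.6, 92.4 and 74.7 FPKM in RNA in the proliferating, quiescent and pre-senescent columns and at 85.9, 138 and 114 in the proliferating, senescent and transformed columns. In Ribo-Seq it was at 89.3, 147 and 126 and at 77.1, 178 and 134, so it was 0.72 above proliferation in quiescence, 1.21 in senescence and 0.80 in transformed cells. NGLY1 was at 13.3, 7.5 and 6.64 FPKM in Ribo-Seq in run 1, so it was lower in quiescence (-0.83) and lower still in pre-senescence, where its TE difference was -1.33, and it was 0.21 above proliferation in senescence. DDI2 was -0.56 in Ribo-Seq and -0.98 in TE in pre-senescence, and -0.40 in Ribo-Seq in senescence. The motif TGACNNNGC, the core of the antioxidant response element that factors of this family bind, was searched on both strands of the RefSeq promoter windows (GRCh38.p14, 250 bases before to 50 after a start). These windows were found for 41 of the 47 genes, all but PSMA7, PSMB1, PSMB6, PSMB7, PSMD4 and PSMG3. The motif was in 15 of the 41, which is 36.6%, and in 16.1% of all 27305 genes with a window, or 19.8% of those in the expression table. Among core and cap genes, PSMA4, PSMB3, PSMC4, PSMC5, PSMD1, PSMD3 and PSMD12 had it. The rest of the 15 are outside the constitutive core and cap: PSMB9, PSME1, PSME2, PSME4, PSMD5, PSMD9, PSMG1 and PSMG2. The share within the core and cap alone was not computed. Of the core genes past 1.5-fold in RNA in transformed cells, PSMB3 had the motif and PSMA3 did not. Of the genes past 1.5-fold higher in RNA in senescence, PSMC4 had it and PSMB5, PSMA6 and PSMD8 did not. PSMB6 and PSMB7, also higher there, had no window. A link between the motif and the differences was not tested. Matches are shown, with the motif in capitals, for a core gene that passed 1.5-fold in RNA in no state (PSMA4) and for the 3 cap genes that passed it in transformed cells (PSMD12, PSMD3 and PSMC5, where the match is on the other strand). Against the proliferating column of run 1 none of these 3 passed 1.5-fold in RNA.
PSMA4, chr15:78540650-78540678, plus strand: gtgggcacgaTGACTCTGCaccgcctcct
PSMD12, chr17:67366724-67366752, minus strand: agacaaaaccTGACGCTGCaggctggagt
PSMD3, chr17:39980760-39980788, plus strand: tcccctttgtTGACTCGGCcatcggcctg
PSMC5, chr17:63827654-63827682, plus strand: gaccggatctGCTGTGTCAgcgccgccct
The CCAAT box was in 20 of the 41, 48.8%, against 39.7% of all genes with a window and 44.0% of those in the expression table. These matches describe letters and not binding.

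Of the immunoproteasome genes, PSMB8 and PSMB9 were higher than in proliferation in quiescence and lower in senescence in both assays. In RNA PSMB8 was at 19, 33.2 and 21.5 FPKM in the proliferating, quiescent and pre-senescent columns of run 1, and at 21.5, 7.04 and 29.4 in the proliferating, senescent and transformed columns of run 2. PSMB9 was at 5.80, 12.7 and 4.13, and at 6.36, 1.00 and 9.93. PSMB10 was at 11.1, 18.8 and 12.3, and at 15.4, 12.7 and 21.7. All 3 genes were highest within run 1 in quiescent cells and highest within run 2 in transformed cells.

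Their footprints had the same order in most states. In Ribo-Seq PSMB8 was at 20.0, 34.4 and 23.2 FPKM in run 1, and at 29.8, 5.96 and 45.7 in run 2. PSMB9 was at 9.44, 27.9 and 8.12, and at 15.0, 1.00 and 15.2. PSMB10 was at 37.4, 43.9 and 15.9, and at 30.6, 6.77 and 34.5. Senescent cells were lowest in each of the 3 genes.

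In quiescence PSMB8 was 0.81 higher in RNA and 0.78 higher in Ribo-Seq, and PSMB9 1.13 and 1.56 higher, and these were the genes of the 47 that passed 1.5-fold upward in both assays. PSMB10 was 0.76 higher in RNA but 0.23 in Ribo-Seq. Set against the proliferating column of run 2, the RNA differences were 0.63, 1.00 and 0.29 and the Ribo-Seq differences 0.21, 0.90 and 0.52, so PSMB9 kept its side of the threshold in both assays, PSMB8 lost it in Ribo-Seq and PSMB10 lost it in RNA.

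In senescence PSMB8 was 1.61 lower in RNA and 2.32 lower in Ribo-Seq in log2 terms, 3.05-fold and 5.00-fold. PSMB9, at the floor in both assays, was at least 6.36-fold lower in RNA and at least 15.0-fold lower in Ribo-Seq. PSMB10 was different: its RNA was -0.28 from proliferation, and its footprints were 4.52-fold lower, a difference of -2.18, so its TE difference of -1.90 was the lowest of the 47 genes. Against the proliferating column of run 1 the RNA difference of PSMB10 was 0.19 and its Ribo-Seq difference -2.46. PSMB10 also had the lowest TE difference in pre-senescence, -1.38, with 11.1 and 12.3 FPKM in RNA and 37.4 and 15.9 in Ribo-Seq. With the 2 Ribo-Seq columns exchanged, the senescence differences of PSMB8, PSMB9 and PSMB10 in Ribo-Seq would be 2.32, 3.91 and 2.18, opposite in direction to the RNA of PSMB8 and PSMB9.

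Set beside the constitutive subunit it replaces, PSMB8 was at 12.7%, 25.3% and 11.9% of PSMB5 in the RNA of proliferating, quiescent and pre-senescent cells, and at 18.1%, 3.52% and 20.4% in that of proliferating, senescent and transformed cells. In Ribo-Seq it was at 6.15%, 13.9% and 8.26%, and at 13.1%, 2.32% and 21.4%. PSMB9 was at 4.06% of PSMB6 in Ribo-Seq in proliferation, 14.2% in quiescence, and at most 0.491% in senescence, where it is at the floor. PSMB10 was at 11.6%, 17.7% and 5.15% of PSMB7 in Ribo-Seq in run 1 and at 12.2%, 2.12% and 13.3% in run 2. In every column the constitutive subunit was the more abundant of each pair, by RNA and by footprints.

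**Figure D3:**
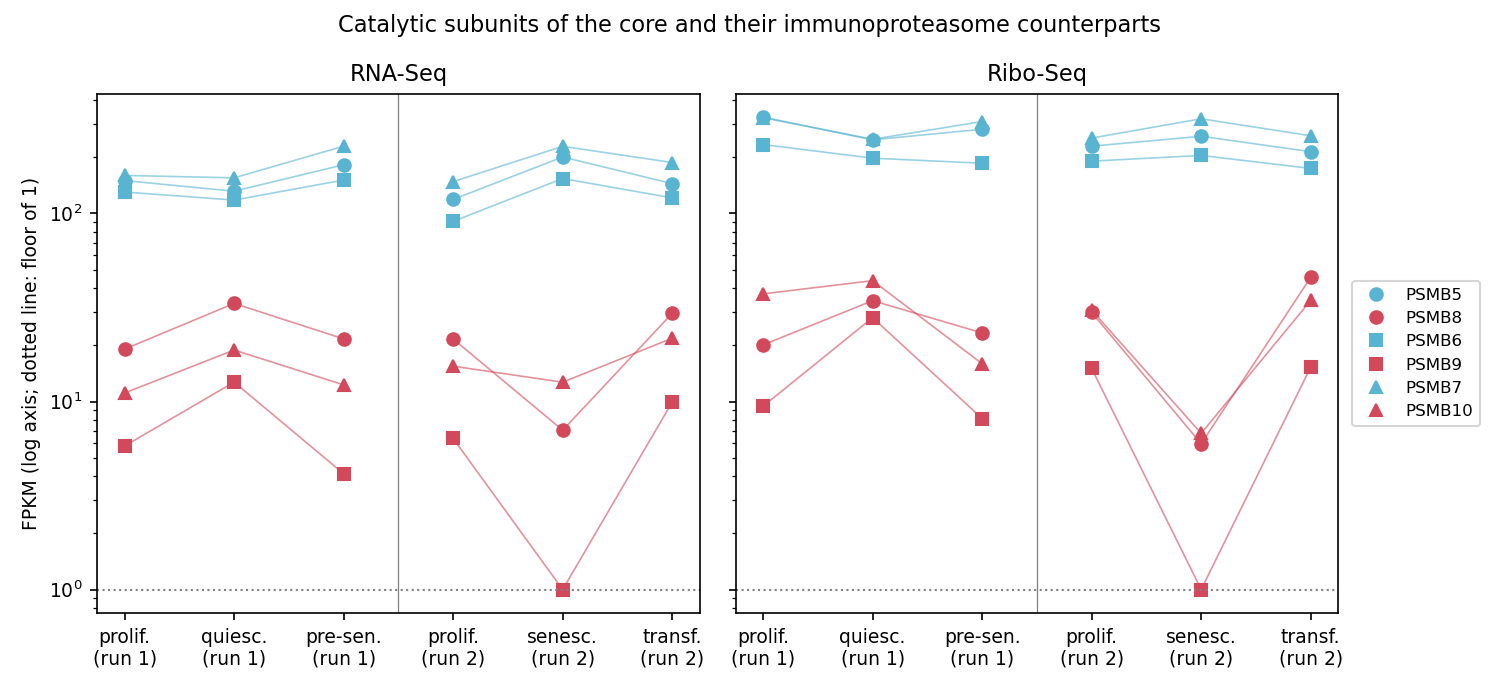
FPKM (y, log axis) of the catalytic subunits PSMB5, PSMB6 and PSMB7 and of their counterparts PSMB8, PSMB9 and PSMB10 in the 6 states (x), RNA-Seq on the left and Ribo-Seq on the right; lines join columns of 1 run. The constitutive subunits stay between 90.8 and 325 FPKM, while the immunoproteasome subunits are highest in quiescence within run 1 and lowest in senescence within run 2, where PSMB9 lies at the floor of 1.

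The promoter windows of these genes are shown because PSMB8, PSMB10, PSME1 and PSME2 each hold a match to the core of the interferon-stimulated response element, written as GAAA, any 2 bases and GAAA again and searched on both strands. The motif was found in 7 of the 41 proteasome genes with a window, 17.1%, the others being PSMA4, PSMB4 and PSMG4, and in 4.38% of all 27305 genes and 4.13% of those in the expression table. The 4 matches shown lie within 30 bases of a start. Capitals mark the match, which in PSMB8 and PSME1 is on the other strand, and the matches were not tested for binding.
PSMB8, chr6:32844032-32844061, minus strand: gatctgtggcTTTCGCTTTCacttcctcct
PSMB10, chr16:67936852-67936881, minus strand: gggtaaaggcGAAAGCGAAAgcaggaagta
PSME1, chr14:24136189-24136218, plus strand: gccctaccgcTTTCGCTTTCccttcgcggt
PSME2, chr14:24146619-24146648, minus strand: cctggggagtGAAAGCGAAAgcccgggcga
These letters are not in the window of PSMB9. The 250 bases before its start are given whole to compare with those of PSMB10, the gene whose RNA stayed near proliferation in senescence. Genes with the match did not share a direction in senescence RNA: PSMB8 was at -1.61, PSME1 at -0.73 and PSME2 at 0.11. A link between the match and the differences was not tested. In PSMB9 the capitals mark a CCAAT box and a TGACNNNGC match on the other strand, and in PSMB10 the interferon-response match.
PSMB9, chr6:32853942-32854191, plus strand: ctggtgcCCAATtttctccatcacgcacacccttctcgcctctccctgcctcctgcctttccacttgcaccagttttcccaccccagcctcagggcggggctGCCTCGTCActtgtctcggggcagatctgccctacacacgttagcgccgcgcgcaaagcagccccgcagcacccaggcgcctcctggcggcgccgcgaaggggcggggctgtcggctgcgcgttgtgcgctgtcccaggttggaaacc
PSMB10, chr16:67936851-67937100, minus strand: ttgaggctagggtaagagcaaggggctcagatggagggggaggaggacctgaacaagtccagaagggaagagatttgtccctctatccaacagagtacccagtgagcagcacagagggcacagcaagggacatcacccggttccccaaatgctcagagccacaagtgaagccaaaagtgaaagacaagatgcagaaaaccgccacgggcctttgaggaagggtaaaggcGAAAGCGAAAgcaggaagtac

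Of the regulators that bind such elements, IRF1 was at 5.06, 8.66 and 5.70 FPKM in RNA in run 1 and at 5.63, 3.10 and 12.6 in run 2. Its differences were 0.78 in quiescence, -0.86 in senescence and 1.16 in transformed cells, and 0.90, -1.12 and 1.05 in Ribo-Seq. Among 8 antigen-presentation genes measured, 4 were higher in RNA in quiescence (TAP1, HLA-B, ERAP1 and ERAP2), against 10.7% of all features, and none lower. In senescence 1 was higher (TAP1 at 0.67) and 2 lower (ERAP1 at -1.51 and ERAP2 at -1.35), shares near the 18.5% and 22.4% of all features, and in transformed cells 4 were higher and 1 lower, against 13.1% and 11.5%. Between the proliferating columns 4 of the 8 were higher in run 2, HLA-B by 1.66 and B2M by 1.42. TAP1, the neighbor of PSMB9 in the MHC region, was thus higher in senescent cells (16.9 and 27.0 FPKM) whereas PSMB9 was at the floor. Of 8 fibroblast markers 7 were lower in RNA in senescence, against 22.4% of all features, COL1A1 with a difference of -4.69, and 5 were lower in transformed cells, against 11.5%. Between the 2 proliferating columns 5 of the 8 were already past 1.5-fold higher in run 2, COL1A1 by 1.84, and COL1A1 in transformed cells, at 762 FPKM, stood above the 371 of run 1. Their part in the immunoproteasome values was not tested.

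The PA28 genes did not keep a common direction. PSME1, the alpha subunit, was at 53.4, 80.5 and 42.2 FPKM in RNA in run 1 and at 63.1, 38.1 and 79.5 in run 2. In Ribo-Seq it was at 190, 252 and 116, and at 231, 77.6 and 257. It passed 1.5-fold upward in RNA in quiescence (0.59), and downward in Ribo-Seq in pre-senescence (-0.72) and in both assays in senescence (-0.73 in RNA and -1.57 in Ribo-Seq). With the other run's control the RNA differences were 0.35 in quiescence and -0.49 in senescence, under 1.5-fold, and the Ribo-Seq difference in senescence was -1.29. PSME2, the beta subunit, was at 43.4, 50.04 and 44.9 in RNA in run 1 and at 44.8, 48.2 and 76.8 in run 2, and at 235, 217, 225, 191, 136 and 308 in Ribo-Seq. In senescence its RNA was 0.11 above proliferation and its footprints -0.49, and in transformed cells it passed 1.5-fold in both, at 0.78 and 0.69.

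PSME3, the nuclear PA28 gamma, was at 63.8, 45.5 and 71.5 FPKM in RNA in run 1 and at 62.4, 84.8 and 90.6 in run 2, and at 142, 81.6, 113, 109, 143 and 221 in Ribo-Seq. Its footprints were -0.80 from proliferation in quiescence and 1.03 in transformed cells, the largest Ribo-Seq difference of the 47 genes there, while its RNA difference was 0.54. PSME4 was higher in Ribo-Seq in pre-senescence (0.70) and senescence (1.11), where its RNA was 0.23 and 0.54 above proliferation. Its TE difference of 0.57 in senescence was the highest of the 47 genes and just under 1.5-fold. With the 2 Ribo-Seq columns exchanged, the senescence differences of PSME1 and PSME4 in Ribo-Seq would be 1.57 and -1.11. PSMF1, the inhibitor PI31, lay between -0.16 and 0.54 in RNA and between -0.28 and 0.34 in Ribo-Seq and passed 1.5-fold in no state.

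**Figure D4:**
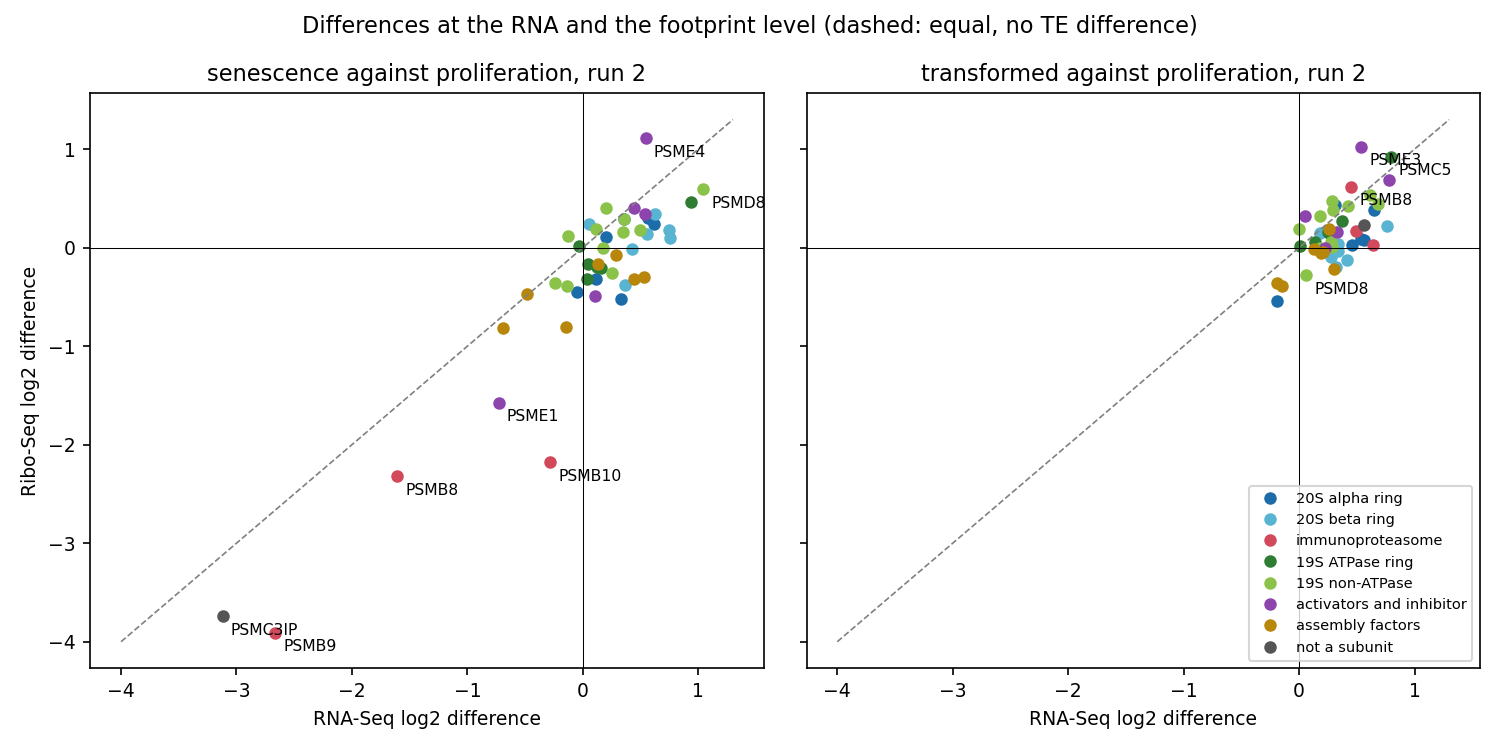
RNA-Seq log2 difference (x) against Ribo-Seq log2 difference (y) of the 47 genes in senescence and in transformed cells, each against the proliferating column of run 2, coloured by role. In senescence PSMB8, PSMB9, PSMB10, PSME1 and PSMC3IP lie far below the other genes, with PSMB10 (-0.28 in RNA, -2.18 in Ribo-Seq) farthest below the line of equal difference, and in transformed cells PSME3 is highest in Ribo-Seq at 1.03.

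The assembly factors were among the less abundant genes, at 11.8 to 35.6 FPKM in RNA in the proliferating column of run 1. In quiescence 5 of the 7 were lower in Ribo-Seq, against 22.1% of all features, with PSMG1, a chaperone of the alpha ring, at 50.4 and 23.2 (-1.12) and its partner PSMG2 at 29.2 and 15.4 (-0.92), while none passed 1.5-fold in RNA. PSMG2 also had one of the lowest TE differences in quiescence, -0.80. In senescence PSMG2 was lower in both assays, at 21.6 and 13.4 FPKM in RNA (-0.69) and 34.05 and 19.4 in Ribo-Seq (-0.81), and PSMG3 in Ribo-Seq (-0.81). PSMG4, PSMD10 (gankyrin) and PSMG3 had lower TE in senescence, at -0.82, -0.76 and -0.66. In pre-senescence 4 of the 7 were lower in TE, PSMD5, PSMD9, PSMD10 and PSMG2, against 22.5% of all features, and in transformed cells no assembly factor passed 1.5-fold in any of the 3 measures.

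**Figure D5:**
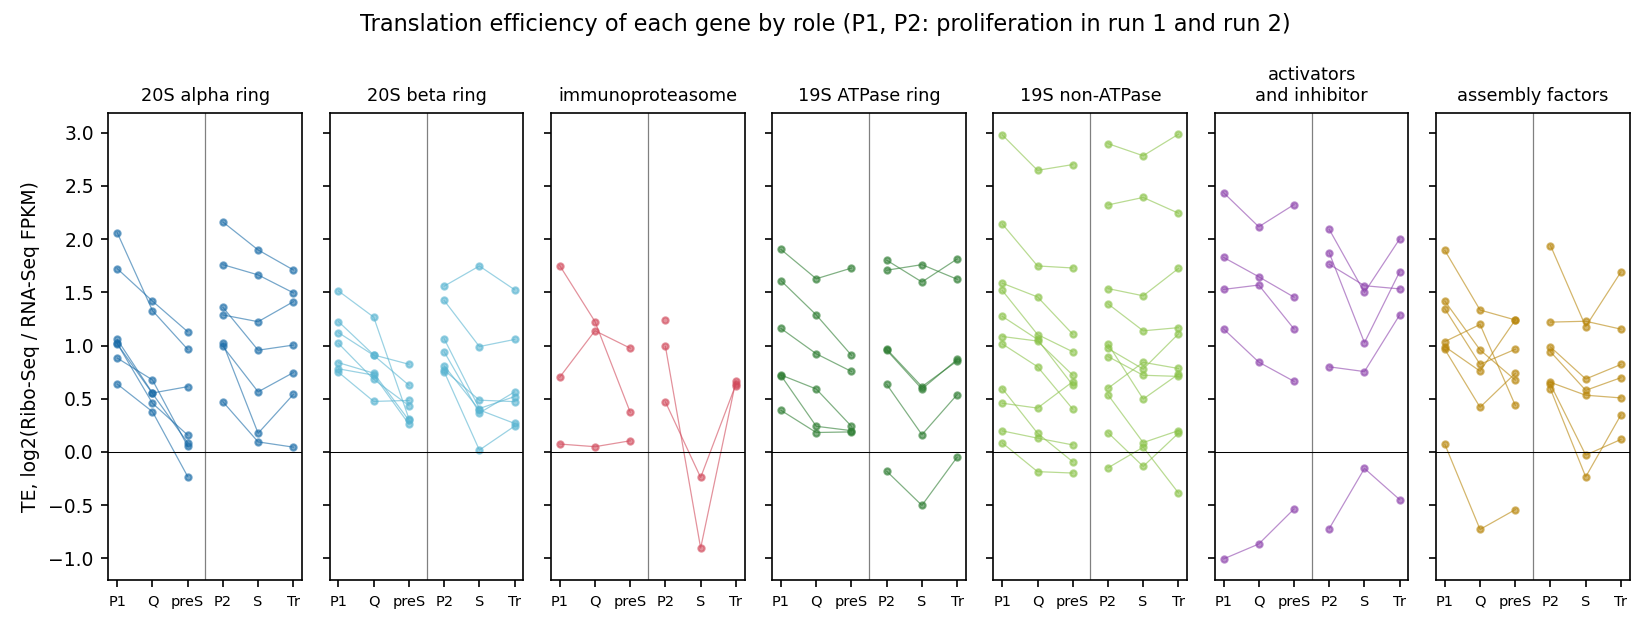
TE (y, log2 of Ribo-Seq over RNA-Seq FPKM) of each gene except PSMC3IP in the 6 columns (x; P1 and P2 are the proliferating columns, Q quiescence, preS pre-senescence, S senescence, Tr transformed), 1 panel per role, lines joining columns of 1 run. Every core gene is lower in preS than in P1, PSMD7 stays highest (2.65 to 2.99), and PSME4 stays below 0; PSMB9 in senescence, at the floor in both assays, is left out.

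Among 13 accessory factors measured, none passed 1.5-fold in RNA in pre-senescence or in transformed cells. In TE in senescence 6 of the 13 lay above proliferation and 7 below, with a median of -0.18. There 1 was higher (UBQLN1 at 0.59), against 13.8% of all features, and 3 were lower, against 17.6%. POMP, the maturation factor of the core, was at 76.5 and 139 FPKM in RNA in senescence (0.86) but at 519 and 435 in Ribo-Seq (-0.25), a TE difference of -1.11. SHFM1, which encodes a small 19S subunit whose symbol the rule does not catch, was at 51.9 and 71.1 in RNA (0.45) and at 304 and 117 in Ribo-Seq (-1.38), a TE difference of -1.83. Between the proliferating columns SHFM1 already differed by 0.95 in Ribo-Seq and 0.77 in TE, and POMP by 0.22 and 0.35. In the proliferating column of run 1 SHFM1 was at 157 in Ribo-Seq, nearer to its senescent value, and POMP at 445, close to its senescent value. The 8 genes of the CCT chaperonin, another large ring complex, had a median TE difference of -0.05 in senescence and -0.32 in pre-senescence, against -0.41 and -0.59 for the 14 core subunits. The ribosomal proteins had -0.65 and -0.63. In transformed cells the medians were -0.37 for the core, 0.01 for CCT and -0.04 for the ribosomal proteins. The core thus lay between both complexes in senescence and pre-senescence and below both in transformed cells, as a description without a test.

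Senescent and transformed cells, both with active RAS G12V and from the same run, were also compared directly. In RNA 2 of the 47 genes were higher in senescence, PSMD8 at 0.98 and PSMG4 at 0.68, against 18.2% of all features, and 9 were lower, against 26.8%. In Ribo-Seq 2 were higher, PSMD8 at 0.87 and PSME4 at 0.78, against 22.7%, and 13 lower, against 29.8%. The 3 immunoproteasome genes and PSME1 and PSME2 were lower in both, PSMB8 by 2.94 and PSMB10 by 2.35 on the log2 scale in Ribo-Seq. The core medians were 0.05 in RNA and 0.06 in Ribo-Seq. These cells differ in the knockdowns, SV40 small T and the duration and form of RAS expression, which cannot be told apart here.

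PSMC3IP, which is not a subunit, was at 10.0 FPKM in proliferation and 1.15 in senescence in RNA, and at 17.8 and 1.33 in Ribo-Seq. It was also lower in quiescence, at 17.6 and 7.68 in RNA. Without it, 5 of the other 46 genes passed 1.5-fold in RNA in quiescence and 10 in senescence. In quiescence 4 were higher and 1 lower, against 10.7% and 8.73% of all features. In senescence 6 were higher and 4 lower, against 18.5% and 22.4%.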

How the data were processed

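RNA-Seq and Ribo-Seq of BJ cells were deposited by the authors as 1 table of FPKM. According to the study's methods, reads were aligned with Bowtie to Ensembl release 65 protein-coding transcripts, the isoform with the longest coding region stood for each gene, unique alignments were counted over the whole transcript for RNA-Seq and over the coding region for Ribo-Seq, and FPKM below 1 were set to 1. The submitters' processing notes name Bowtie and hg19. How replicate libraries were joined into a column is not given in the sources used here. RNA of run 2 was sequenced single-end and that of run 1 paired-end. Strand handling is not given, so reads from PSMB8 and its antisense gene PSMB8-AS1 cannot be told apart, and 20 of the 47 members overlap another RefSeq gene. Named pseudogenes exist for 21 of them.

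Samples were grouped by title. Log2 differences, TE, medians and counts of features past 1.5-fold were computed over all 9699 features with no value added (Python 3.11.15, pandas 2.3.3, numpy 2.4.6) and tested on simulated data. No filter was applied. With 1 column per state, no test was run. Named genes were the catalytic and immunoproteasome subunits, the activators and inhibitor, the member with the highest and lowest difference of each role group per state and measure, members past 1.5-fold in both assays or in TE, and listed genes. Other members past 1.5-fold in 1 assay were named after their values were seen, as were those highest or lowest in level. The members and lists were chosen with earlier results of these data known. Alternatives were 1 added before the log, a minimum of 5 FPKM, median centring, the other run's control, a 2-fold threshold, 1.75 local SDs over 501 features of like level, PSMC3IP left out, the exchange of the 2 Ribo-Seq columns in doubt, and, chosen after seeing the data, TE without values at the floor. Promoter sequences are from RefSeq, GRCh38.p14. One further knockdown target and one listed regulator are not reported here.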

Additional observations from a re-analysis of the deposited data

Results flagged for a closer look

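In all, 8 differences were marked because the same gene lay past 1.5-fold in opposite directions in 2 states, each against its own control. None of these contrasts was tested, since each state has 1 column. Values are the difference between the 2 log2 differences. For quiescence against senescence it was 3.80 for PSMB9 in RNA and 5.47 in Ribo-Seq (both bounds, with PSMB9 at the floor in senescence), 2.42 for PSMB8 in RNA and 3.10 in Ribo-Seq, and 1.32 for PSME1 in RNA. These 5 also span the 2 sequencing runs. For senescence against transformed cells, within 1 run and with a shared control, it was -3.31 for PSMB9 in RNA, again a bound, and -2.94 for PSMB8 in Ribo-Seq. For quiescence against transformed cells also across the 2 runs, it was -1.83 for PSME3 in Ribo-Seq, where the values were -0.80 and 1.03 (-0.41 in quiescence with the other run's control).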

How the results depend on the processing

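No paired analysis was possible because the table holds 1 column per state with replicates already joined, and for the same reason leaving out a replicate was not run. Medians and counts past 1.5-fold of the 47 genes stayed within the SD between the proliferating columns, or within 1.5 times, in 136 values and moved in 48; among named genes 170 stayed, 111 moved and 5 reversed. The causes were not tested, and for the alternatives no share of all features was computed beside the counts.

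With the other run's proliferating column as control, quiescence gave medians of 0.11 (RNA), -0.15 (Ribo-Seq) and -0.21 (TE) with counts of 11 (Ribo-Seq) and 8 (TE). Pre-senescence gave 0.55, 0.070 and -0.42, with 18 in RNA. Senescence gave 0.0007 in RNA and -0.43 in Ribo-Seq, with 18 in Ribo-Seq. Transformed cells gave 0.067 in RNA, with counts of 4, 14 and 7 in RNA, Ribo-Seq and TE.

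At 2-fold the counts in RNA, Ribo-Seq and TE were 2, 3 and 0 in quiescence and 0, 1 and 0 in transformed cells; they were 2 (Ribo-Seq) and 3 (TE) in pre-senescence, and 4 (RNA) and 2 (TE) in senescence. With the threshold set by local SDs they were 2 (RNA) and 2 (Ribo-Seq) in quiescence, 2 (Ribo-Seq) and 7 (TE) in pre-senescence, 3, 4 and 2 in senescence, and 0, 0 and 2 in transformed cells. The thresholds differ by construction.

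Centred on the median of all features, TE medians were -0.22 in quiescence, -0.37 in pre-senescence, with a count of 9, and -0.16 in transformed cells, with a count of 0 and 4 in RNA. With 1 added to each FPKM the TE count in transformed cells was 0.

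With the 2 Ribo-Seq columns in doubt exchanged, the TE median was -0.13 with a count of 24 in senescence, and -0.017 with a count of 14 in transformed cells, where the Ribo-Seq count was 15. The senescence Ribo-Seq differences reversed to 2.32 for PSMB8, 3.91 for PSMB9, 2.18 for PSMB10, 1.57 for PSME1 and -1.11 for PSME4. The table gives no read count per gene, so the counting error of low values such as those of PSMB9 was not computed.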
